A study of Mus musculus with 8 samples.

Results

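RNA held by YTHDF3, a cytoplasmic reader of N6-methyladenosine (m6A), was sequenced after immunoprecipitation (IP) from mouse embryonic fibroblasts (MEFs), and the peaks described here are those whose deposited annotation places them in an intron. They were 17403 of the 87940 peaks in the 4 peak lists. The MEFs were wild-type C57BL/6 cells taken at embryonic day 13.5. The normal group was kept in high-glucose DMEM with serum, and the starved group spent 2 h in HBSS with HEPES. Each group had 2 replicates of an IP with an anti-YTHDF3 antibody and of an input made with no antibody, from polyA RNA. The study states that work in cultured cells was done on separate days but does not assign days to these replicates, so p-values measure the spread between these samples, which may be technical. The lists do not name the input they used, and an input of the same condition and replicate number was assumed.

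Introns are removed from pre-mRNA in the nucleus, while YTHDF3 acts mainly on mature mRNA in the cytoplasm. Intron sequence in polyA RNA can come from unspliced or partly spliced transcripts, from retained introns that reach the cytoplasm, or from exons that one annotation lists and another does not. m6A is placed while RNA is being made, mostly at adenosines of the GGAC type, and it is known in introns as well as in exons. A peak caller that slides windows over the genome can also draw a peak across a short intron between 2 strongly bound exons, and the annotation program names a peak by its centre. The comparison of intron peaks with gene models therefore comes first below.

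The sequences below show the 2 situations that the intron label covered. In the first set a short intron lies inside a strong peak. Exon bases are in capitals and the intron is in lower case. The reference is mm10, read on the strand of the gene. Flna, filamin A, crosslinks actin and had the intron region with the most IP reads. Amotl2, angiomotin-like 2, regulates YAP signalling and was the region that passed a test after starvation. The Flna stretch is intron 23 of 46 on the minus strand with 30 exon bases on each side (chrX:74234996-74235139), and the Amotl2 stretch is intron 4 of 9 on the plus strand with 10 on each side (chr9:102724822-102725112).
Flna intron 23: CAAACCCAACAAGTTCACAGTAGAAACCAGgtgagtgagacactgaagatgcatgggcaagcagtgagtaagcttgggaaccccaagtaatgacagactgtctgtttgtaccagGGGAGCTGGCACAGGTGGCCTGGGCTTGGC
Amotl2 intron 4: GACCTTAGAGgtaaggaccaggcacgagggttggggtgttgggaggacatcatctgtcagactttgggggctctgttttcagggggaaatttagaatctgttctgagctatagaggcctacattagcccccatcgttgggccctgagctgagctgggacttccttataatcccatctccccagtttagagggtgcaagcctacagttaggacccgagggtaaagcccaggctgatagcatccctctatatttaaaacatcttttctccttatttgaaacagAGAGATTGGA
The Flna intron is 84 bases long and the Amotl2 intron 271 bases. The Flna stretch holds no GGAC and the Amotl2 stretch holds 4, all in its intron.

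In the second set the most enriched 200-base window of a peak lies within an intron and meets no exon of GENCODE. Here capitals mark GGAC on the strand of the gene. Acot7 encodes an acyl-CoA thioesterase (intron 1 of 8, plus strand, chr4:152178391-152178590), Mllt1 a chromatin reader of the super elongation complex (intron 5 of 11, minus strand, chr17:56900581-56900780), Timp2 an inhibitor of matrix metalloproteinases (intron 1 of 4, minus strand, chr11:118330041-118330240) and Hspg2 perlecan, a basement membrane proteoglycan (intron 1 of 96, plus strand, chr4:137470211-137470410). The first 3 are in regions called in all 4 libraries with some of the highest IP/input folds, and Hspg2 had the intron with the most peaks of this kind. The Acot7 window is from its peak with the most IP reads, 171 over 30 input reads in starved replicate 2. That peak is not the one with the highest fold of the region.
Acot7: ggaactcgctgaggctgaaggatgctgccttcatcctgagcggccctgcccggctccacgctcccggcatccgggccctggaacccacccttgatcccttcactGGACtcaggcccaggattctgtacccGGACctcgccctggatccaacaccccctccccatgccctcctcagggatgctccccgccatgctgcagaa
Mllt1: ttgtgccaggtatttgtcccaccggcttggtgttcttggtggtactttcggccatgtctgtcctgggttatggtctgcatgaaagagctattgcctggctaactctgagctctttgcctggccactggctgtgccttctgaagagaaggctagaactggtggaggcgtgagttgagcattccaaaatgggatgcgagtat
Timp2: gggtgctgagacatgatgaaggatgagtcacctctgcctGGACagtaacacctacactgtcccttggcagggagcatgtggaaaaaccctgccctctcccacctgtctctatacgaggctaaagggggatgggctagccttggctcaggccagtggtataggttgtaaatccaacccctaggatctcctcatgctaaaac
Hspg2: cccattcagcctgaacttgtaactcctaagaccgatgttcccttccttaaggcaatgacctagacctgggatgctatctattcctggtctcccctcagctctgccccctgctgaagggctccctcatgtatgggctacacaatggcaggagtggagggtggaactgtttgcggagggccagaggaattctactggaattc
The Acot7 window holds 2 GGAC and the Timp2 window 1, while the Mllt1 and Hspg2 windows hold none.

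Of the intron peaks, 17291 met the study's definition of a target, an IP/input fold of at least 2 with p under 0.0001, and 112 did not. The targets numbered 3152 and 4383 in normal replicates 1 and 2 and 5065 and 4691 in starved replicates 1 and 2. They made up 18.2%, 19.97%, 21.9% and 19.0% of all target peaks in the same order, with a mean of 19.8% ± 1.63 (SD, n = 4). The share after starvation minus that in normal medium was 3.79 percentage points in replicate 1 and -0.983 points in replicate 2, so no difference stood out from the spread (exact permutation test, two-sided, p = 0.667, where 2 against 2 cannot go below 0.333). By IP reads the share was smaller, since intron peaks were short and shallow. It was 9.61% and 9.85% in normal and starved replicate 1, and 12.95% and 12.65% in normal and starved replicate 2. Intron targets together held 847795 to 2438697 IP reads per library. Reads outside peaks are not in the lists, and the depth of a whole library is therefore unknown. Intron targets had a median of 47 to 68 IP reads and a median length of 260 to 330 bases, against 122 to 179 reads and 420 to 470 bases for exon targets.

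Fibroblast genes were read as a check of the cells. Thbs1, Pdgfra, Pdgfrb and Col3a1 had a target peak in an exon in at least 3 libraries. Col1a2 had one in normal replicate 1 and starved replicate 1 only. Col1a1, Fn1, Vim, Tcf21 and Twist1 had none in any. Only peaks annotated to an exon were read here, and Fn1 hosted 1 intron target with 32 IP reads. The lack of an exon peak therefore shows neither a lack of YTHDF3 enrichment elsewhere in the gene nor a lack of expression. No marker of epithelium, blood or neurons had a target peak in an exon, and of 3 endothelial markers only Kdr did, with 29 to 89 IP reads.

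Most intron peaks touched an exon. Across the libraries 82.0% ± 5.37 (SD, n = 4) of intron targets overlapped an annotated GENCODE exon by at least 1 base, and 19.6% ± 1.63 were exonic over at least 50% of their length. Of the 17291 targets, 10742 reached into an exon from 1 side or lay over an exon of another transcript, 3434 covered the whole intron they were assigned to, and 3115 met no exon. The peaks that covered an intron made up 20.02% ± 3.83 of targets and lay in short introns with a median of 170 bases. They carried 74.8% and 72.95% of the IP reads of all intron targets in normal and starved replicate 1. In normal and starved replicate 2 they carried 86.4% and 84.8%. Peaks free of exons made up 17.98% ± 5.37 and carried 1.41% to 2.21% of those reads. By reads, the intron label thus covered mostly strong peaks that ran across short introns.

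**Figure D1:**
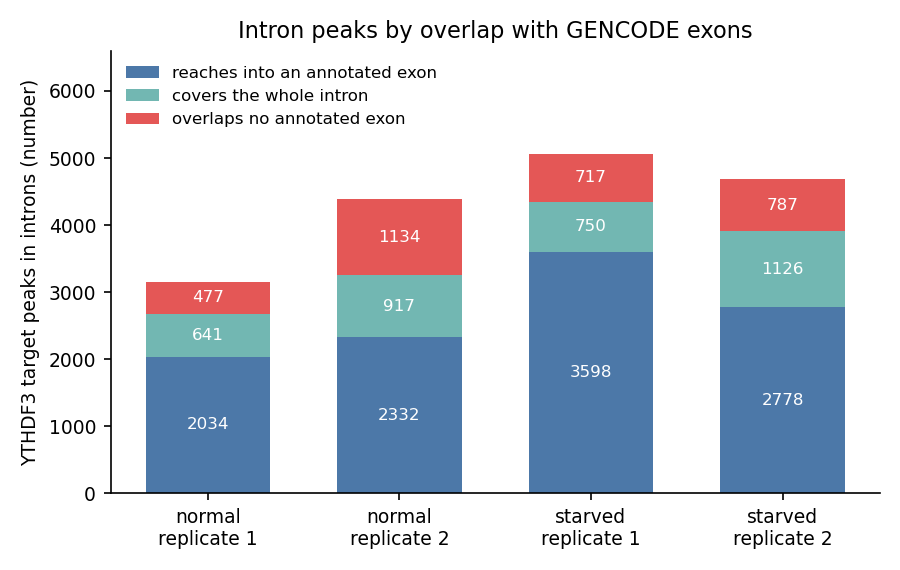
Number of intron target peaks in each library (y axis), split into peaks that reached into a GENCODE exon, peaks that covered the whole intron and peaks that overlapped no exon. The group without an exon numbered 477 and 1134 in the normal libraries and 717 and 787 in the starved libraries.

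The centres of intron peaks lay near splice sites. Their median distance to the nearest exon was 31, 43, 35 and 34 bases in normal replicates 1 and 2 and starved replicates 1 and 2. Between 13.6% and 16.4% of the centres were inside a GENCODE exon, which the deposited annotation did not use. Between 68.2% and 82.2% were within 100 bases of an exon, and 3.83% to 15.1% were more than 1000 bases away. Normal replicate 2 had the most distant peaks, and starved replicate 1 the fewest. Between 25.6% and 29.7% of intron targets overlapped an exon of a transcript that GENCODE calls retained_intron, and 8 peaks in each library overlapped a small RNA gene.

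**Figure D2:**
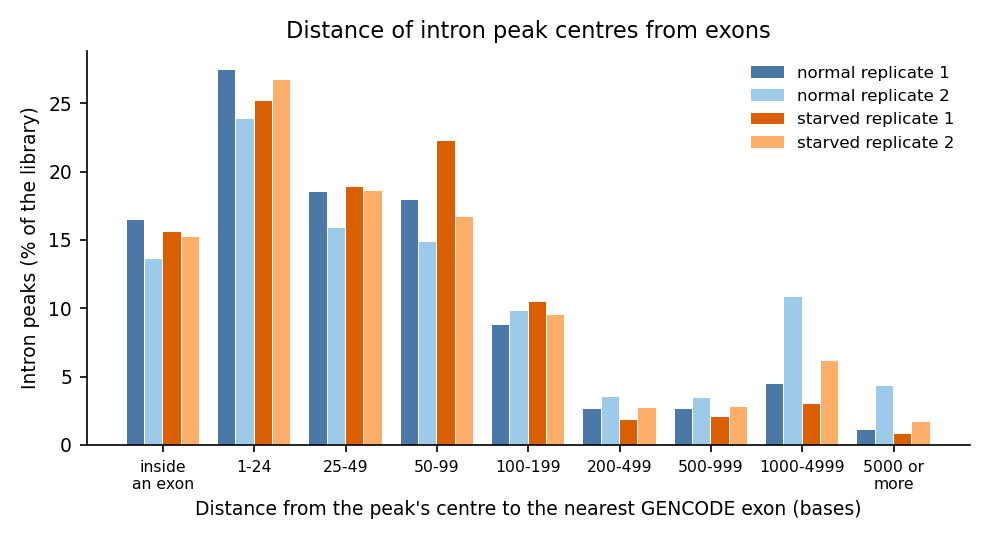
Share of the intron target peaks of each library (y axis, percent) by the distance of the peak's centre from the nearest GENCODE exon (x axis, bases). In every library the tallest group is that from 1 to 24 bases, with 23.8% to 27.5% of peaks, and normal replicate 2 has the highest bars from 1000 bases on.

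Peaks free of exons were shallower than the others and lay in longer introns. They had a median of 20 IP reads and 0 input reads, against 53 and 9.5 for peaks that reached an exon and 424 and 111 for peaks that covered an intron. Their introns had a median length of 8125 bases, against 2114 for peaks that reached an exon. Between 25.1% and 40.2% lay in the first intron, against 13.3% to 16.4% of the peaks that reached an exon. Their centres were more often in the first 25% of the intron (36.1%) than in the last 25% (24.4%), while for peaks that reached an exon these shares were 45.99% and 46.0%. Between 14.99% and 17.3% of their bases were in repeats masked in the genome, against 23.5% to 25.9% in windows of the same introns without a peak. RefSeq, which includes predicted transcripts, placed an exon under 408 of the 3115, and for 391 of these only a predicted transcript did. The share of this group was lower after starvation in both replicates, with starved minus normal at -0.977 points in replicate 1 and -9.10 points in replicate 2. The exact permutation test (two-sided, p = 0.667) cannot decide on a change, since 2 against 2 cannot go below 0.333.

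The IP/input fold of intron targets was above that of exon targets in each library, on the log2 scale. The medians were 1.805 against 1.51 in normal replicate 1, 1.87 against 1.51 in normal replicate 2, 1.58 against 1.49 in starved replicate 1 and 1.74 against 1.55 in starved replicate 2. The mean difference was 0.24 ± 0.12 (SD, n = 4), in the same direction in 4 of 4 libraries (exact sign-flip permutation test, two-sided, p = 0.13, the smallest that 4 libraries allow). Input depth moved with this difference. Where the input held 3 reads or fewer, 3 reads were used and the fold is a lower bound, which applied to 29.3% to 42.1% of intron targets and to 4.36% to 13.8% of exon targets. Among peaks with more than 3 input reads the difference was 0.06 ± 0.02 (the same exact test, p = 0.13), and among peaks with at least 50 IP reads it was -0.01 (exact test, p = 0.625).

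Intron peaks overlapped a target peak of the other replicate less often than exon peaks did. The share was 46.3% and 28.1% for normal replicates 1 and 2 and 48.4% and 40.0% for starved replicates 1 and 2, with a mean of 40.7% ± 9.13 (SD, n = 4). For exon peaks the mean was 60.8% ± 10.8, and the difference was -20.1 ± 2.61 points, lower for introns in all 4 libraries (exact sign-flip permutation test, two-sided, p = 0.13). IP reads moved with it. At 11 to 29 IP reads the mean shares were 18.4% for intron peaks and 18.1% for exon peaks, and at 300 reads or more they were 75.5% and 78.1%. In between, intron peaks were lower, at 36.9% against 45.5% for 30 to 99 reads, in each of the 4 libraries, and at 59.7% against 65.5% for 100 reads to under 300. Peaks that covered an intron were found again in 67.1% ± 9.0 of cases, peaks that reached an exon in 37.2% ± 9.56 and peaks free of exons in 23.8% ± 10.4. When an intron peak did overlap a peak of the other replicate, that peak was annotated to an intron in 54.0% ± 6.72 of cases, and to an exon with no intron peak beside it in 40.9% ± 6.90. The same bound stretch was thus often an intron peak in one list and an exon peak in the other.

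**Figure D3:**
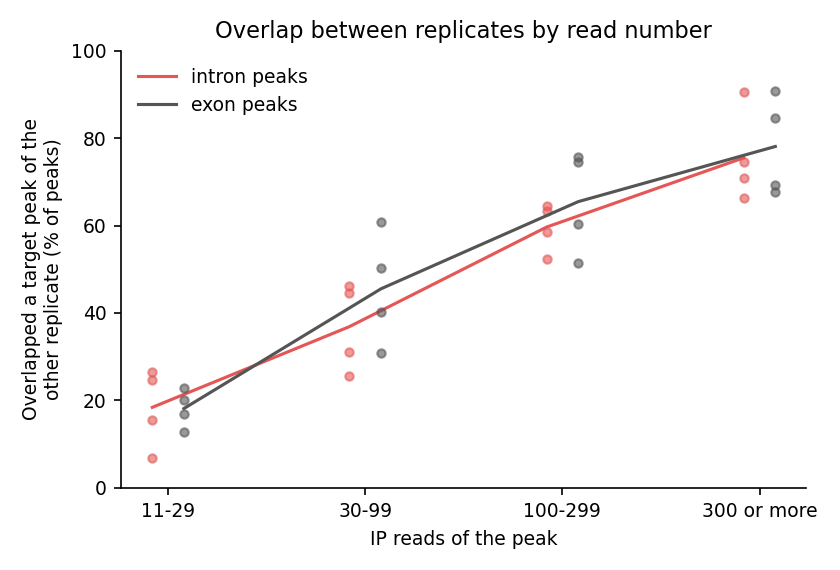
Share of target peaks found again as a target peak in the matching replicate (y axis, percent) by the IP reads of the peak (x axis), for intron and exon peaks. Points are the 4 libraries and lines join their means. Both kinds rise from about 18% to above 75%, and their points overlap at each read number.

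GGAC was searched on the strand of the host gene in the 200 bases at the centre of each intron target, and in 1 window of the same size in the same intron that met no peak and no exon. Both windows could be placed for 11672 peaks, of which 8767 reached an exon and 2905 were free of exons. Peaks that covered their intron left no room for a control window and are not in this comparison. GGAC was present in 50.1% ± 1.16 of peak windows and 42.6% ± 0.238 of control windows, a difference of 7.49 ± 1.31 points (SD, n = 4; exact sign-flip permutation test, two-sided, p = 0.13). The peak windows that reached an exon accounted for most of it, with 50.9% against 41.5%. In the windows free of exons the shares were 47.6% ± 0.840 and 45.5% ± 0.912, and the difference of 2.06 ± 1.71 points was between 0.275 and 4.36 points in single libraries (exact test, p = 0.13). GC content moved with GGAC, at 49.2% in the 11672 peak windows against 45.6% in control windows. Its part in the difference was not tested.

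The introns with the most peaks free of exons were looked up after their values were seen. The 3115 peaks, less those whose host transcript could not be placed, fell in 1805 introns, of which 79.1% held 1 peak over all libraries and 31 held 10 or more. Intron 1 of Hspg2, 32134 bases long, held 40 peaks, with 10, 17, 1 and 12 in normal replicates 1 and 2 and starved replicates 1 and 2. Its peaks were shallow, with a median of 21 IP reads, at most 51, and 0 input reads at the median. Starved replicate 1 stands apart with a single peak, while starved replicate 2 lies between the normal libraries. Intron 1 of Pmepa1, a feedback inhibitor of TGF-beta signalling, held 31 peaks, of which 22 were in normal replicate 2 and 0 in starved replicate 1. Intron 1 of Timp2, 34751 bases long, held 24 peaks, spread over the libraries as 7, 7, 4 and 6. Intron 13 of Farp2, a guanine exchange factor, was different in depth, with 23 peaks, a median of 185 IP and 61 input reads and at most 992 IP reads.

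Peaks that overlapped by at least 1 base were merged over the 4 lists into 39979 regions, of which 6531 were called in all 4 libraries. In 256 of these, 3.92%, every peak was annotated to an intron, and they are called intron regions here. A further 1464 held an intron peak beside a peak of another annotation. The 256 had 200 host genes and contained 6.70% of all intron targets. In 134 of them each peak covered its intron, in 152 the intron was at most 500 bases long, and 24 met no GENCODE exon. Of these 24, 7 overlapped a RefSeq exon, with predicted transcripts included. The fold given for a region in a library is that of its peak with the highest fold. Its IP and input reads are summed over all its peaks.

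The 5 intron regions with the most IP reads lay in Flna, which had 2, and in Furin, Flnc and AI506816. The Flna region around intron 23 (chrX:74233681-74236460) held 58384 and 73972 IP reads in normal replicates 1 and 2 and 115148 and 113270 in starved replicates 1 and 2. Its input held 17038, 28766, 15030 and 22229 reads in the same order. Divided by peak length, the IP gave 21001 to 41420 reads per kb, which exceeded the 1524 to 1938 reads per kb of the deepest Pkd1 region. The Furin region, at the last intron of a proprotein convertase, held 29385 to 51529 IP reads and 10551 to 13032 input reads. The region of Flnc, the muscle filamin, held 17022 to 29775 IP reads. These regions were deep in input too, and their log2 folds stayed between 1.01 and 2.26. From the summed reads, these folds were between 1.01 and 1.76. AI506816 held 17185, 3688, 33661 and 27980 IP reads over a stretch annotated as the MuLV-int retroviral repeat, whose near-identical copies can share reads, so its level is uncertain.

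The regions with the highest folds were of the other kind. Ranked by the lowest log2 fold of the 4 libraries, the first 5 were in Acot7, Mllt1, Zfp950 and Timp2, with 2 in Timp2, and all but that of Zfp950 met no GENCODE exon. In Acot7 (chr4:152178381-152181230) the IP held 256 and 278 reads in normal and 311 and 279 in starved replicates 1 and 2, over an input of 30, 43, 18 and 38. The log2 folds of its highest peaks were 3.12, 3.22, 2.91 and 3.56. From the summed reads they were 2.78, 2.69, 2.89 and 2.29. The groups overlapped by either measure. In Mllt1 (chr17:56900321-56902060) the IP held 97, 95, 193 and 142 reads over 4, 11, 7 and 7 input reads, with log2 folds of 4.30, 2.87, 3.56 and 3.47. Per base of peak the IP values were closer, at 101 and 95 against 134 and 101 reads per kb. The 2 Timp2 regions were shallower, at 22 to 49 and 25 to 80 IP reads over 0 to 11 input reads. Zfp950 is a zinc finger gene of a large family with similar copies, and its 87 to 226 IP reads are uncertain for that reason. Over the 24 intron regions that met no exon the median log2 fold of a library was 2.16 to 2.51, and over the other 232 it was 1.495 to 1.75. These are folds of the highest peak, and the regions differ in their number of peaks, with 16 in Acot7. Several of the 24, as in Timp2 and Col5a1, had 3 input reads or fewer in a library, where the fold is a lower bound. The part of peak number and input depth in this difference was not tested. Of the 24, 10 were in a first intron, against 36 of the 232.

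**Figure D4:**
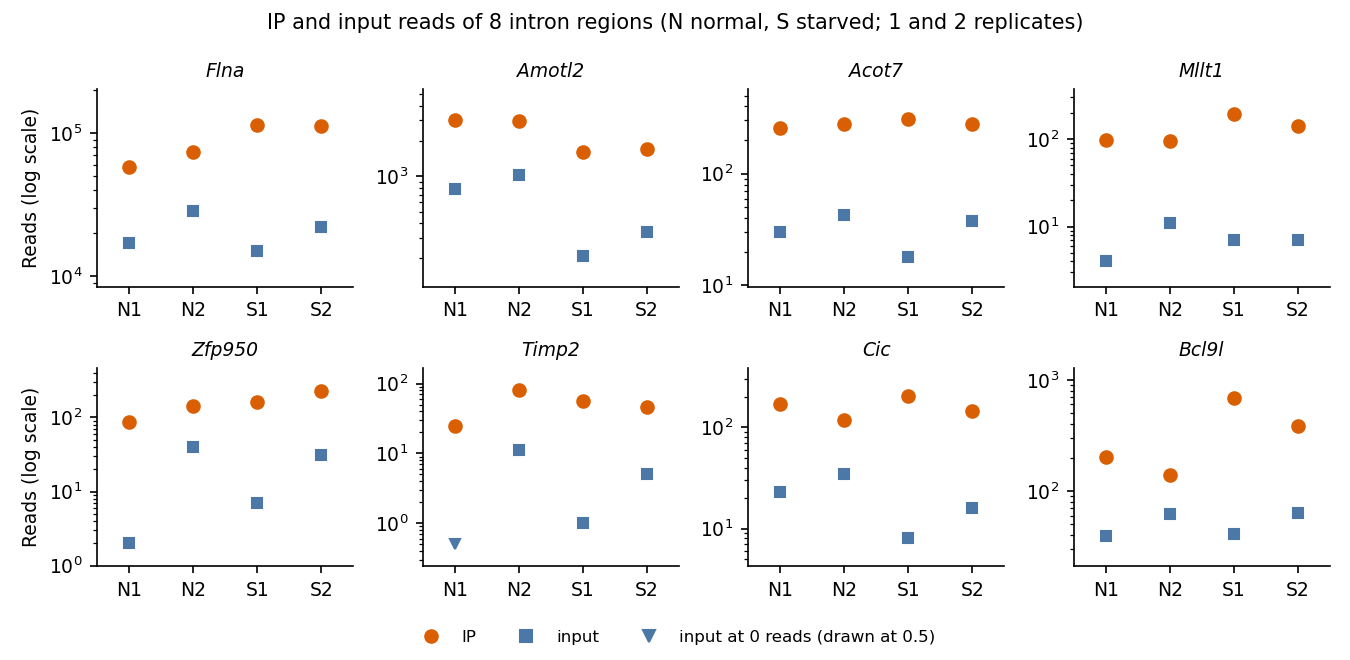
IP reads (circles) and input reads (squares) of 8 intron regions in each library (x axis: N1 and N2 normal, S1 and S2 starved), on a log axis. Flna and Amotl2 have at least 210 input reads in each library, while Mllt1 and Timp2 have at most 11 and a triangle marks an input of 0 in normal replicate 1.

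Several host genes had more than 1 intron region. Myo9b, an unconventional myosin, had 5 and Mtmr4, a phosphoinositide phosphatase, had 4. Adar, which edits adenosine to inosine, Col6a3, a collagen VI chain, and Pkd1, polycystin 1, had 3, as did Plxna1, Timp2, Tnrc18, Tns1 and Tns3. The regions of the first 5 hosts met exons, in introns of 122 to 3762 bases. The 5 Myo9b regions held 402 to 1575 IP reads except for 117 in 1 of them in normal replicate 1. The 3 Adar regions held 83 to 295 reads in the normal libraries and 323 to 690 in the starved ones. The groups did not overlap in reads, which are not scaled for depth. Scaled and per base of peak, the change passed no test, at a log2 change of IP reads of 0.21 to 0.32 (adjusted p of 0.732 to 0.854, edgeR).

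No intron region was called changed in its IP/input ratio after starvation. A change was tested with edgeR's quasi-likelihood test of IP against input reads over the 6531 regions, with Benjamini-Hochberg adjustment at 0.05. It called 0 of the 256 intron regions. Over all regions it called 1 higher, 0.0153%, and none lower, 0%, so calls were rare throughout the series. At an unadjusted p under 0.05, 7 intron regions were higher and 2 lower, against 82 and 101 of all regions. DESeq2 also called 0 of the 256, with 1 at an unadjusted p under 0.05. The median log2 change was -0.00079 for intron regions and -0.02 for all regions. These tests cover only regions called in all 4 libraries, so intron peaks gained or lost with starvation were left out. Among the 24 intron regions without a GENCODE exon, the SE of the log2 ratio ran from 0.227 in Farp2 to 3.29 in Morn1. At the upper end even a large change could not be called.

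The study used a cutoff of 1.8 for the fold change. With that cutoff required in each of the 2 replicates, 1 intron region was higher and none was lower. Over all regions 0.367% were higher and 0.352% lower by that criterion. The region was in Cic, a repressor downstream of receptor tyrosine kinases (chr7:25268291-25268760, intron 1 of 20). Its IP held 170 and 118 reads in normal and 204 and 146 in starved replicates 1 and 2, and its input 23, 35, 8 and 16. Its log2 fold was 2.58 and 3.45 in normal and starved replicate 1, and 1.75 and 2.60 in replicate 2. The log2 change of its IP reads per base went the other way, at -0.49 and -0.13. With folds divided by the median of each library the log2 changes of the fold were 0.94 and 0.83, and no intron region reached the cutoff in both replicates. The edgeR log2 change was 0.77 ± 0.44 (SE) with an adjusted p of 0.999. In all, 77 of the 256 intron regions were higher in both replicates (30.1%) and 56 were lower in both (21.9%), against 27.3% and 25.3% of all 6531 regions.

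The regions that came next in size of change passed neither criterion. In the higher direction they were Bcl9l, a coactivator of beta-catenin, with log2 changes of 0.78 and 0.87, and Zfp697, with 0.71 in each replicate. The Bcl9l region held 201 and 139 IP reads in normal and 685 and 386 in starved libraries, with 39 to 63 input reads in all 4. The IP groups did not overlap, while the input groups did. With the reads of all peaks of the Zfp697 region summed, its mean log2 change was 0.21 in place of 0.71. In the lower direction they were Zfp219 with -1.21 and -0.80, A730017L22Rik with -0.99 and -0.66 and Inf2, an actin-assembling formin, with -0.59 and -1.09. With summed reads the Inf2 changes were -0.4 and -0.705. In Zfp219 and A730017L22Rik the input of starved replicate 1 was 0 reads, so the fold there is a lower bound.

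**Figure D5:**
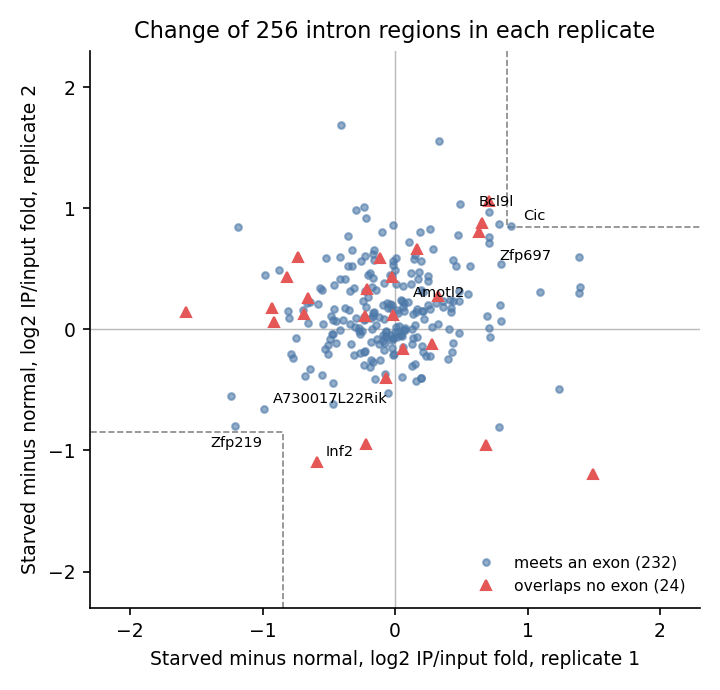
Change of the log2 IP/input fold after starvation in replicate 1 (x axis) and replicate 2 (y axis) for the 256 intron regions, with triangles for the 24 that met no GENCODE exon. Dashed lines enclose changes of at least 1.8-fold in both replicates, where Cic lies alone on the higher side and no region lies on the lower side.

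Reads themselves changed in 1 intron region. Amotl2 (chr9:102724451-102725430) held 3045 and 2991 IP reads in normal replicates 1 and 2 and 1610 and 1714 in starved replicates. Its input held 785 and 1020 reads in the normal and 210 and 335 in the starved libraries. Neither the IP nor the input values of the groups overlap. Per base of peak and relative to the other regions, IP reads fell by 1.55 ± 0.23 (SE) on the log2 scale (adjusted p = 0.0372, edgeR) and input reads fell by 1.67 ± 0.29 (adjusted p = 0.0126, edgeR). The IP/input ratio differed by 0.11 ± 0.19 (adjusted p = 0.999), while IP and input were both lower. In bulk RNA, fewer cells with a transcript and less of it per cell cannot be told apart. Without the length offset the adjusted p was 0.246 for IP and 0.206 for input reads, and without starved replicate 1 it was 0.0582 for input reads. For IP reads 1 of 256 intron regions was lower and none higher, against 0.75% lower and 0.0919% higher of all regions. For input reads 1 was lower and none higher, against 0.995% and 0.23%. The count of intron regions called was 4 to 10 for IP reads and 2 to 7 for input reads when each library in turn was left out.

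The other regions with the largest changes of IP reads were not called by edgeR, while DESeq2 called 3 of the 4 named next. In Flcn, folliculin, which links amino acid supply to mTORC1, a region over an 81-base intron held 316 and 261 IP reads in normal and 1418 and 919 in starved libraries. Its input held 54 and 73 against 183 and 188 reads. The groups did not overlap, and the log2 change of IP reads per base was 1.19 ± 0.33 (adjusted p = 0.262 with edgeR and 0.0222 with DESeq2). Vash2, vasohibin 2, held 75 and 66 against 318 and 195 IP reads (adjusted p = 0.323 with edgeR and 0.205 with DESeq2). Its input held 14 and 16 against 35 and 42 reads. In the lower direction Iffo2 held 453 and 637 against 128 and 378 IP reads (log2 change -1.58 ± 0.26, adjusted p = 0.0546 with edgeR and 3.31e-05 with DESeq2). Its input held 138 and 231 against 20 and 95 reads. Zfp451, a SUMO ligase, held 165 and 546 against 63 and 41 IP reads (adjusted p = 0.138 with edgeR and 0.0175 with DESeq2). Per kb of peak, not scaled for depth, these were 177 and 319 against 131 and 171. The Zfp451 input held 39 and 208 against 3 and 7 reads. In all 4 regions the input moved in the direction of the IP, and the ratio was not called changed.

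The gene lists were read for host genes of intron targets. Of 28 collagen, matrix and integrin genes, 21 hosted an intron target in at least 1 library and 12 hosted one free of exons. Among 6787 protein-coding genes with a target peak on an exon, 54.6% hosted an intron target and 17.1% one free of exons. For the list these were 17 and 8 of its 18 genes with a target on an exon. All 42 intron targets of Hspg2 and all 24 of Timp2 were free of exons, as were 51 of 63 in Col5a1, a collagen V chain. By contrast, each of the 6 intron targets of Thbs1, the matrix protein thrombospondin 1, covered its intron, with 85900 to 342066 IP reads. The list hosted 8 intron regions, in Col5a1, Col6a3 and Timp2, and none passed a test. The 2 Col5a1 regions in intron 2 held 13 and 48 against 21 and 14 IP reads, and 47 and 56 against 33 and 18.

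Of 30 autophagy and FOXO genes, 21 hosted an intron target and 5 did so in all 4 libraries, but none hosted an intron region. Of the 23 with a target on an exon, 20 hosted an intron target, beside the 54.6% of all such genes. Ulk1, the kinase that starts autophagy, had 25 intron targets in 4 libraries, of which 16 covered their intron. Zfyve26 had 18 and Atg2b, a lipid transfer protein, 10. Peaks free of exons were found in 11 of the genes and held 11 to 55 IP reads, except for 375 in Wipi1. Of the 23 genes with a target on an exon 10 hosted one, 43.5% beside 17.1% of all such genes. Of the 3 intron targets of Foxo3, 1 covered its intron and held 5553 IP reads, in a library other than starved replicate 2. The other 2 were free of exons, each in starved replicate 2 alone. They had 20 and 37 IP reads over 0 and 2 input reads, and the first lay on a RefSeq exon. These peaks were called in 1 library each.

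Of 19 m6A readers, writers and erasers, 8 hosted an intron target and 3 one free of exons, and 13 of the 19 had a target on an exon. Of these 13, 61.5% hosted an intron target and 23.1% one free of exons, beside 54.6% and 17.1% of all such genes. Fto, a demethylase, had 6 intron targets over the 4 libraries with 38 to 166 IP reads, and Ythdf3 itself had 4 in 3 libraries with 24 to 885. Of 32 serum immediate-early and ERK feedback genes, 12 hosted an intron target. Of the 25 with a target on an exon 11 did, 44% beside the same 54.6%. Dusp4, a MAP kinase phosphatase, had 1 intron target in each starved library at the same place in intron 1, with 38 and 46 IP reads. No such peak was called in the normal libraries. Of 37 splicing regulators and hosts of detained introns 8 hosted an intron target, among them 7 of the 11 with a target on an exon. Of 30 snoRNA host genes 4 did, among them 3 of the 5 with a target on an exon. Mat2a, which makes the methyl donor S-adenosylmethionine, had 9 intron targets, each covering its intron. Its 2 intron regions, at introns 6 and 2, held 3277 to 4376 and 1305 to 1724 IP reads with overlapping groups. The log2 changes of IP reads per base were -0.68 ± 0.22 and -0.69 ± 0.23 (adjusted p of 0.319 and 0.334, edgeR), and those of the ratio were -0.01 and 0.13.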

How the data were processed

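YTHDF3 RIP-seq of MEFs gave 4 peak lists, 1 for each IP library. The authors trimmed reads with Trimmomatic, aligned them with TopHat2 2.0.13 to mm10, called peaks against the input with diffReps in windows of 200 bases and annotated them with HOMER. The deposited value of 3 libraries is a signal, reads multiplied by 1 factor per library and column. For normal replicate 2 the factors are 1, so the authors deposited counts. The steps between the values gave the factors (0.655 to 1.53), which turned the signal back into whole reads, and 100% of values came out whole within 0.0051 plus 1e-06 of the value. Each peak has a p-value that the authors took from diffReps, used only to select targets. The lists carry no strand, so that antisense transcription cannot be told apart. The authors' log2 fold column was not used.

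Introns came from the transcript that the annotation names, exons from GENCODE and RefSeq for the same assembly, and 17212 of the 17291 intron targets could be placed on a host gene. The tests of regions used R 4.3.3 with edgeR 4.0.16 (quasi-likelihood, TMM, length of the peaks as an offset for IP or input reads, Benjamini-Hochberg) and with DESeq2 1.42.0 as an alternative. On simulated data from the 6531 regions with 200 changed 2.5-fold, the ratio test recovered 86.5%, the IP test 83.0% and the input test 29.0%. The simulated reads had a common dispersion and no differences in peak length, and the IP and input tests ran on them without the length offset. Recovery with the offset was not measured. Helper steps were also tested on simulated data. Single values were compared by exact permutation. The other steps used pysam 0.24.0, scipy 1.17.1, numpy 2.4.6 and pandas 2.3.3 in Python 3.11.15.

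The intron peaks and the gene lists were chosen with earlier results of these data known. Genes named are, among intron regions whose IP held 20 reads or more in each library, the 5 with the most IP reads, the 5 with the highest lowest fold and the 3 in each direction with the largest smaller change of the fold and of IP reads per base, then the 5 hosts with the most regions and every list gene that hosts one. Other genes were named after their values were seen. Alternatives covered the thresholds, annotation, overlap, window, filters, tools, a replicate block and leaving out each library.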

Additional observations from a re-analysis of the deposited data

How the results depend on the processing

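The share of peaks in introns was 24.97% with a fold of at least 4 and 14.5% by length, and 19.0% to 20.3% with each library left out. The fold difference reversed to -0.0102 with at least 50 IP reads, was 0.41 with a floor of 1 input read and was 0.19 to 0.28 with each library left out. The share that overlapped an exon was 19.6% when at least 50% of the peak had to be exonic and 71.97% with a fold of at least 4, and 80.7% to 84.6% with each library left out. RefSeq exons, an alternative added after seeing the data, gave 81.1%. The overlap between replicates was 25.2% with 50% reciprocal overlap, 14.1% with a fold of at least 4 and 55.5% with at least 50 IP reads. The GGAC difference kept its direction in all its alternatives, at 2.06 to 8.03 points. No setting called a changed ratio in any of the intron regions.

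The call of 1 region by IP reads became 5 with DESeq2, 4 with 50% reciprocal overlap, 0 without the length offset, 9 of the regions with at least 1 intron peak, and 4 to 10 with each library left out (9 without either normal library, 4 without starved replicate 1 and 10 without starved replicate 2). For input reads these counts were 4, 6, 0, 10 and 2 to 7 (6, 3, 2 and 7 without normal replicates 1 and 2 and starved replicates 1 and 2). With a replicate block, IP reads gave 10 calls and input reads 12, of which 8 and 10 were lower, with Flcn, Iffo2 and Zfp451 among those by IP reads. The labels do not say that replicate numbers mark shared cultures, so no pairing was taken as given. Differences between the replicates correlated at r = 0.25 across the intron regions and 0.27 across all regions. The share of IP reads in intron targets also differed more between replicate numbers than between conditions. A shared effect of replicate number therefore remains possible and was not tested. The count of regions changed 1.8-fold was 12 at 1.5-fold, 0 at 2-fold, 3 with summed reads, 0 when folds were divided by the library median, 10 with at least 1 intron peak and 16 in each replicate alone. Calls therefore depend on the model, and the cause was not tested. With 2 replicates a condition no permutation test can pass 0.05, and peaks of few reads limit the overlap between lists.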

Other observations

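A small group of intron peaks lay on retroviral repeats. The centres of 52 intron targets in 9 host genes were annotated to MuLV-int or RLTR4 elements, and 47 of them met no GENCODE exon. Besides AI506816, the element in intron 2 of Chd9, a chromatin remodeller, gave 7 peaks in 4 libraries with up to 2827 IP reads, and the one in intron 1 of Galnt11, a glycosyltransferase, gave 11 peaks with up to 171. In intron 29 of Malrd1 and intron 9 of Cnbd2 each library had 1 peak. These elements have near-identical copies, so the copy that a read came from is uncertain.

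With those retroviral peaks left out, 3.39% of the peaks free of exons had their centre in a LINE/L1 element, 3.16% in a SINE of the Alu family and 0.554% in an ERV1 element. Among the peaks that reached an exon the shares were 0.298%, 0.736% and 0.0373%. These shares were not taken for windows of the same introns without a peak, so no enrichment in repeats can be read from them. By masked bases, retroviral peaks included, peaks free of exons were lower than such windows, at 14.99% to 17.3% against 23.55% to 25.9%.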
